A study of Mus musculus with 6 samples.

Results

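Messenger RNA levels of 52 mouse genes for splicing factors and heterogeneous nuclear ribonucleoproteins (hnRNPs) were followed over 7 days in which bone marrow cells were cultured with Flt3 ligand, the cytokine that drives dendritic cell development. The genes were all those of the 21761 in the deposited table whose symbol starts with Srsf and a number, Hnrnp, Snrp or Sf3a or Sf3b. These genes, called members below, comprise 11 SR proteins, 20 hnRNPs, 8 Sm core proteins, 4 proteins specific to the U1 or U2 snRNP and 9 subunits of SF3A and SF3B. The 3 stages sequenced, all from male C57BL/6J mice and with 2 libraries each, were uncultured bone marrow at day 0 (libraries II and III), cells labelled as common myeloid progenitors at day 4 (I and II) and cells labelled as bone marrow derived dendritic cells at day 7 (III and IV). No allele or drug was named for any stage, the ligand came as supernatant of a transfected SP2/0 line (a mouse myeloma line), and per the labels every live cell was taken at days 4 and 7, and they name no sort. Whether the libraries of a day stem from different mice is not said in the labels; the p-values therefore rest on the spread between these libraries only, which may be technical.

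Splicing removes introns from the precursors of mRNA. The spliceosome is built from small nuclear RNAs wrapped in a ring of Sm proteins, to which each particle adds its own proteins; the U1 particle marks the start of the intron, and the U2 particle, which carries SF3A and SF3B, marks the branch point near its end. SR proteins mostly bind exons and promote the use of nearby splice sites, while many hnRNPs bind introns or exons and hold splice sites back, so that the balance of both families sets which exons are kept. In blood cells these families are known for setting the isoforms of surface receptors such as Ptprc (CD45), and SF3B1 is mutated in human myelodysplastic syndromes.

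Libraries differed in depth and in the cells they held. Reads in genes numbered 322837 and 157797 before culture, 1365635 and 3852628 on day 4, and 16149088 and 10951745 on day 7. For a gene of 1 kb, 1 read was worth 3.10 and 6.34 RPKM before culture (day 0), 0.732 and 0.260 RPKM on day 4, and 0.0619 and 0.0913 RPKM on day 7 (RPKM scales the reads of a gene by its exon length and by the library's reads in genes). The 7 measured neutrophil markers summed to 58070 and 7152 RPKM before culture (day 0), 43680 and 31810 RPKM on day 4, and 195 and 202 RPKM on day 7, where Camp had no read in library IV. The 7 measured erythroid markers summed to 78970 and 39320 RPKM before culture (day 0), 3716 and 4002 RPKM on day 4, and 23.3 and 44.8 RPKM on day 7, where Alas2 and Slc4a1 had no read in either library. The 8 measured macrophage markers summed to 52.3 to 103 RPKM in the day 0 and day 4 libraries and to 9207 and 9710 RPKM at day 7. The conventional dendritic cell markers were mixed at day 7: their 7 genes summed to 39.5 and 55.0 RPKM at day 7, against 30.9 and 47.5 RPKM at day 0. Of these genes Itgax was called higher at day 7 against day 0 (24.7 and 25.9 RPKM at day 7, against 4.16 and 0 RPKM at day 0). Zbtb46, Flt3 and Xcr1 were called lower, with Zbtb46 at 0.0288 and 0.0283 RPKM at day 7. Cd209a, Ccr7 and Clec9a were not called. The 5 plasmacytoid dendritic cell markers summed to 630 and 732 RPKM at day 7, against 22.7 and 18.6 RPKM at day 0, and Bst2 gave 613.5 and 714 RPKM of the day 7 sums. Reads in 1455 genes of olfactory, vomeronasal and trace amine receptors, which blood cells are not known to express, took 1.53% and 1.44% of reads before culture, 0.762% and 0.149% on day 4, and 0.00391% and 0.00421% on day 7. This was a mean of 3.39 and 1.57 reads a gene before culture, 7.16 and 3.95 on day 4, and 0.434 and 0.317 on day 7. The 5 progenitor markers summed to 5157 and 713 RPKM before culture (day 0), 1411 and 1939 RPKM on day 4, and 2.98 and 2.42 RPKM on day 7. Of the day 4 sums Kit gave 8.34 and 18.1 RPKM. The 8 markers of cycling cells summed to 991 and 980 RPKM before culture (day 0), 223 and 407 RPKM on day 4, and 634 and 498 RPKM on day 7. At an unadjusted p under 0.05 by limma, 7 of the 8 were lower in each comparison of days. There 1 was higher at day 7 against day 4 and 1 against day 0. Of all 19279 genes tested, 4896 had such a p at day 4 against day 0, 5631 at day 7 against day 4 and 10072 at day 7 against day 0. The part of cell makeup in the results below was not tested, and in these bulk libraries fewer cells of a type and less RNA per cell cannot be told apart.

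The splicing genes were among the more abundant transcripts on every day. The median member stood at percentile 94.4 and 94.2 of all genes before culture, 89.4 and 89.1 on day 4, and 90.0 and 90.8 on day 7. Together they took 0.816% and 0.992% of the reads before culture, 0.728% and 0.989% on day 4, and 0.684% and 0.667% on day 7. Members with under 10 reads numbered 2 to 4 in the later libraries, against 13 and 21 in the shallow day 0 libraries II and III. The 2 libraries of a day differed by a median of 0.58 (log2) over the 51 members tested on day 0, 0.53 on day 4 and 0.19 on day 7.

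Between day 0 and day 7 the members did not move as 1 block. Genes of the Sm core rose, though none of these was called against either day with a trend of exon length removed, and none against day 0 with quantile normalization. Several SR protein and hnRNP genes, of differing exon length, fell, and most hnRNP genes did not pass the test. At day 7 against day 0, 12 of 51 members were called higher (23.5%, against 11.3% of all 19279 genes tested) and 8 were called lower (15.7%, against 29.3% of all genes tested), by limma on log2(RPKM + 1) at an adjusted p under 0.05; differences below are log2 fold changes on this scale, with the standard error (SE) after ±. At day 7 against day 4, 11 members were called higher (21.6%, against 5.85% of all genes tested) and 4 lower (7.8%, against 6.75%). At day 4 against day 0, 1 member was called higher (2.0%, against 3.66% of all genes tested) and 3 lower (5.9%, against 1.92%). The median log2 fold change of the members was -0.30 at day 7 against day 0, where that of all genes tested was -1.14. It was 0.26 at day 7 against day 4, where all genes had -0.81, and -0.29 at day 4 against day 0, where all genes had -0.40. Every called member had 2 groups of libraries that did not overlap. This was common among uncalled members too and adds no support to a call. At day 7 against day 4 it held for 18 of the 20 hnRNPs, of which 2 were called higher and 2 lower. The 3 comparisons share libraries pairwise, so their values are given side by side and are not independent of each other.

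Calls at day 7 against day 4 were each lost under 4 to 10 of 17 alternative settings, and those at day 4 against day 0 under 8 to 12. The counts depend on single libraries. Without day 7 library III, 4 members were called higher and 3 lower at day 7 against day 0, and without day 7 library IV 3 were called higher and 2 lower. Without day 4 library II the counts were 6 and 7, and without day 0 library II they were 14 and 13. Without either day 4 library limma called no gene at all at day 4 against day 0 or at day 7 against day 4, where one stage is then a single library assumed to vary like the others. Without libraries I and II in turn, the members' median at day 7 against day 4 was 0.17 and 0.45, where all genes had -0.36 and -1.11. At day 4 against day 0 it was -0.01 and -0.38, where all genes had -0.73 and -0.08.

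**Figure D1:**
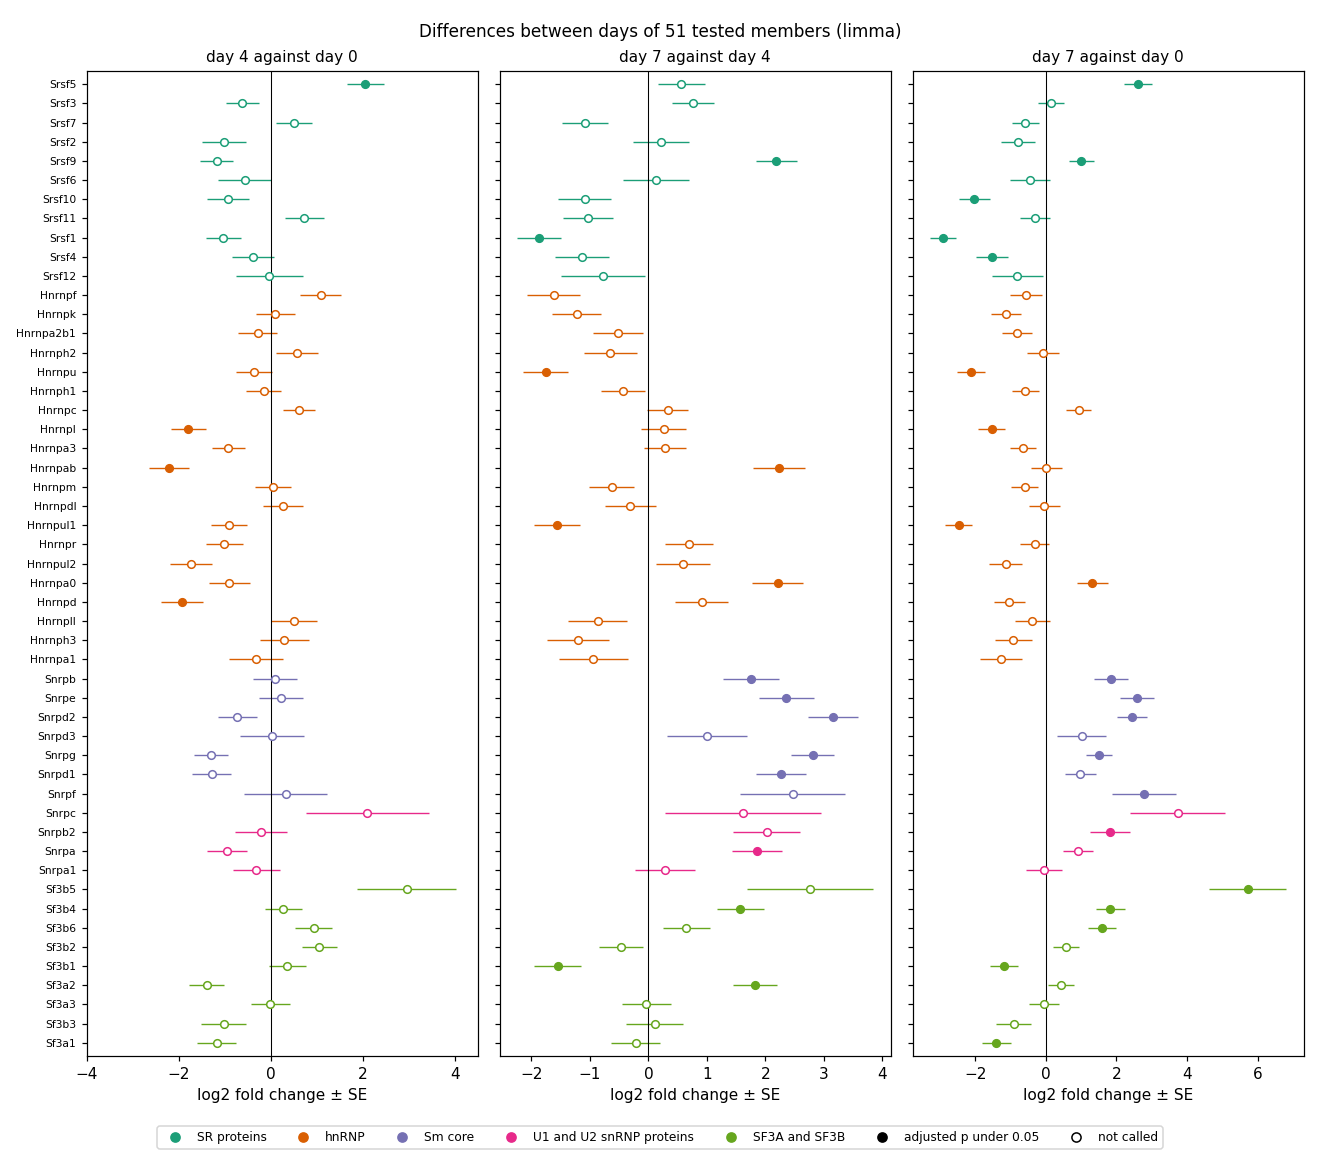
Differences of the 51 tested members between days, 1 row a gene. Points give the log2 fold change on the log2(RPKM + 1) scale and bars its standard error from limma; filled points have an adjusted p under 0.05. At day 7 the Sm core genes lie right of 0 against day 4 and against day 0 on the deposited RPKM scale, while Srsf1 and Hnrnpul1 lie furthest left against day 0.

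The start regions of 4 genes are shown because these genes have the calls that recurred most often in their direction at day 7 against day 0: Srsf5 and Snrpe higher, Srsf1 and Hnrnpul1 lower. Each runs 5′ to 3′ on the gene's own strand, from 250 bases before to 50 bases after the RefSeq transcript start in build GRCm38.p6, at chr12:80945249-80945548 (plus strand), chr1:133610231-133610530 (minus), chr11:88047123-88047422 (plus) and chr7:25754710-25755009 (minus), in the order of the lines below. Capitals mark the letters CCGGAAG of the ETS family motif or AAGATGGC of the YY1 motif, read on either strand; matches that overlap are joined.
Srsf5: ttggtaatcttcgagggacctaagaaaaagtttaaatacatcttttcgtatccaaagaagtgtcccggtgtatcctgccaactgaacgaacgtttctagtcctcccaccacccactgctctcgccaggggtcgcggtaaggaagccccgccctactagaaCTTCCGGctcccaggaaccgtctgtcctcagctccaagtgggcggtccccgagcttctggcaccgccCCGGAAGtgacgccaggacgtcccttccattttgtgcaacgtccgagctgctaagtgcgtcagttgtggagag
Snrpe: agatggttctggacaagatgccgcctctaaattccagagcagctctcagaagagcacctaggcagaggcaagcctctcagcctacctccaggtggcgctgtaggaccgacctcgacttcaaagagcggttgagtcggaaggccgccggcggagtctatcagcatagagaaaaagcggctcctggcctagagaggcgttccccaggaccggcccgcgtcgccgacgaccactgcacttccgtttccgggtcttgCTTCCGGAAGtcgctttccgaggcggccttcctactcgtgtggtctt
Srsf1: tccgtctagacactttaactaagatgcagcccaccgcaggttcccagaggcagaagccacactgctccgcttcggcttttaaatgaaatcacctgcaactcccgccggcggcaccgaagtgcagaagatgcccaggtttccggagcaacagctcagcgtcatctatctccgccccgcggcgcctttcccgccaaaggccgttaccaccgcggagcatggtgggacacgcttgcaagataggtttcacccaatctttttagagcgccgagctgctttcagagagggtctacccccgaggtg
Hnrnpul1: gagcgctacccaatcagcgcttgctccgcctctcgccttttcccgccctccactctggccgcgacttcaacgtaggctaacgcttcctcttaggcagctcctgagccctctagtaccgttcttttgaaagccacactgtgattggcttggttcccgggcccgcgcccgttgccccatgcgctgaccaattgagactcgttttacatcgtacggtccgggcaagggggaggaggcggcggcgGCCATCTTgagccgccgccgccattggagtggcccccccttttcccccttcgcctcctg
The ETS letters occur in the Srsf5 and Snrpe windows and not in the other two, and the YY1 letters occur in the Hnrnpul1 window. Over all 46 members matched to RefSeq, which have 63 start windows, the ETS letters lie in 33.3% of windows, against 8.86% of 32851 windows of all genes. They lie in those of 5 of the 9 matched members called higher at day 7 against day 0 and of 2 of the 8 called lower. The YY1 letters lie in the windows of 0 of the 9 and 2 of the 8, and in 2.75% of all windows. The letters GGGCGG of the GC box lie in 68.3% of the members' windows, against 35.7% of all windows, and those of 6 of the 9 and 8 of the 8. The letters CCAAT lie in 44.4% against 37.4% of windows, CACGTG of the E-box in 11.1% against 7.15%, GCGCATGCG of NRF1 in 4.76% against 1.75%, and TATAAA of the TATA box in 11.1% against 13.6%. All were read on both strands; a match describes these letters only, and no test was made of the shares.

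Among the SR proteins Srsf5 rose to the highest level of the family while Srsf1 and Srsf10 fell. Of the 11 SR proteins, 2 were called higher at day 7 against day 0 (18.2%, against 11.3% of all genes tested). There 3 were called lower (27.3%, near the 29.3% of all genes tested). At day 7 against day 4, 1 was called higher (9.09%, against 5.85%) and 1 lower (9.09%, against 6.75%). Srsf5, one of the classical SR proteins, stood at 30.5 and 18.7 RPKM before culture (day 0), 90.4 and 116 RPKM on day 4, and 156 and 146.5 RPKM on day 7. The 3 pairs of libraries did not overlap and lay in the order of the days. It rose at day 4 against day 0 (log2 fold change 2.05 ± 0.40 SE, adjusted p = 0.0288) and was higher at day 7 against day 0 (2.61 ± 0.40, adjusted p = 0.00398), while day 7 against day 4 did not pass the test (0.56 ± 0.40, adjusted p = 0.346). The call at day 7 against day 0 held under 16 of 17 alternative settings, all but quantile normalization, and that at day 4 against day 0 was lost under 8 of them, including each day 4 and each day 7 library left out. Srsf5 made up 8.47% and 3.94% of the summed SR protein RPKM before culture, 27.5% and 25.7% on day 4, and 35.2% and 37.3% on day 7. Of its longest coding transcript, 27.8% of the stretches of 50 bases also lie in the transcripts of another gene, the predicted gene Gm12966, and how reads that match several genes were counted is not given in the sources used here.

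Srsf1, the prototype SR protein that promotes exon inclusion and is known as a proto-oncogene, moved the other way. It stood at 43.7 and 58.3 RPKM before culture (day 0), 26.4 and 22.3 RPKM on day 4, and 6.20 and 5.61 RPKM on day 7. Both day 7 libraries lay below both day 4 libraries, which lay below both day 0 libraries. The log2 fold change was -2.90 ± 0.37 at day 7 against day 0 (adjusted p = 0.00193) and -1.87 ± 0.37 at day 7 against day 4 (adjusted p = 0.0145); day 4 against day 0 did not pass the test (-1.03 ± 0.37, adjusted p = 0.135). At day 7 against day 0 the call held under all 17 alternatives, with values between -3.38 and -1.84. The call against day 4 was lost under 8 of 17, with values between -2.02 and -0.95. Its share of the summed SR protein RPKM was 12.1% and 12.3% before culture, 8.03% and 4.95% on day 4, and 1.40% and 1.43% on day 7. The sum itself stayed within 328 to 475 RPKM in all 6 libraries.

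Of the other SR proteins, Srsf9, a short member of the family, was lowest at day 4 and highest at day 7. It stood at 34.6 and 30.4 RPKM before culture (day 0), 14.6 and 12.9 RPKM on day 4, and 65.6 and 66.3 RPKM on day 7. It was higher at day 7 against day 4 (2.19 ± 0.35, adjusted p = 0.00598) and against day 0 (1.00 ± 0.35, adjusted p = 0.0483), the second of which is lost under 9 of 17 alternatives and turns to -0.01 with quantile normalization and to -0.05 when a trend with exon length is removed; day 4 against day 0 had -1.18 ± 0.35 (adjusted p = 0.0853). Srsf10, which acts as a repressor when it loses its phosphates in mitosis or heat shock, stood at 39.1 and 78.8 RPKM before culture (day 0), 30.9 and 26.8 RPKM on day 4, and 16.6 and 10.1 RPKM on day 7. It fell at day 7 against day 0 (-2.02 ± 0.45, adjusted p = 0.0149), with no overlap between the libraries of these days. Srsf4 also fell at day 7 against day 0, to 6.53 ± 1.11 RPKM at day 7 against 20.6 ± 2.98 RPKM at day 0 (SD, n = 2 each; adjusted p = 0.034), but the call is lost under 8 of 17 alternatives and 65.4% of its transcript is shared with the predicted gene Gm12992. Srsf3 and Srsf7, adaptors for the export of mRNA, were not called in any comparison. Srsf3 stood at 57.0 and 52.1 RPKM before culture (day 0), 29.9 and 41.2 RPKM on day 4, and 60.97 and 60.4 RPKM on day 7. Srsf7 stood at 45.2 and 45.3 RPKM before culture (day 0), 51.9 and 79.4 RPKM on day 4, and 35.5 and 25.1 RPKM on day 7. For both genes day 4 lay apart from the other days, in opposite directions.

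Srsf2, Srsf6, Srsf11 and Srsf12 were also not called. Srsf2, known as SC35 and as a mark of nuclear speckles, had 60.6 ± 36.7 RPKM on day 0, 27.2 ± 6.78 RPKM on day 4 and 31.3 ± 1.52 RPKM on day 7 (SD, n = 2 each). Srsf6 differed widely between the day 4 libraries, with 16.1 and 50.7 RPKM. Srsf11 averaged 24.9 ± 11.7, 40.0 ± 8.20 and 18.9 ± 0.813 RPKM on days 0, 4 and 7. Srsf12 had 1 read in all before culture, 9 on day 4 and 1 on day 7, no more than the mean of a receptor gene on days 0 and 4, so no fold is given.

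**Figure D2:**
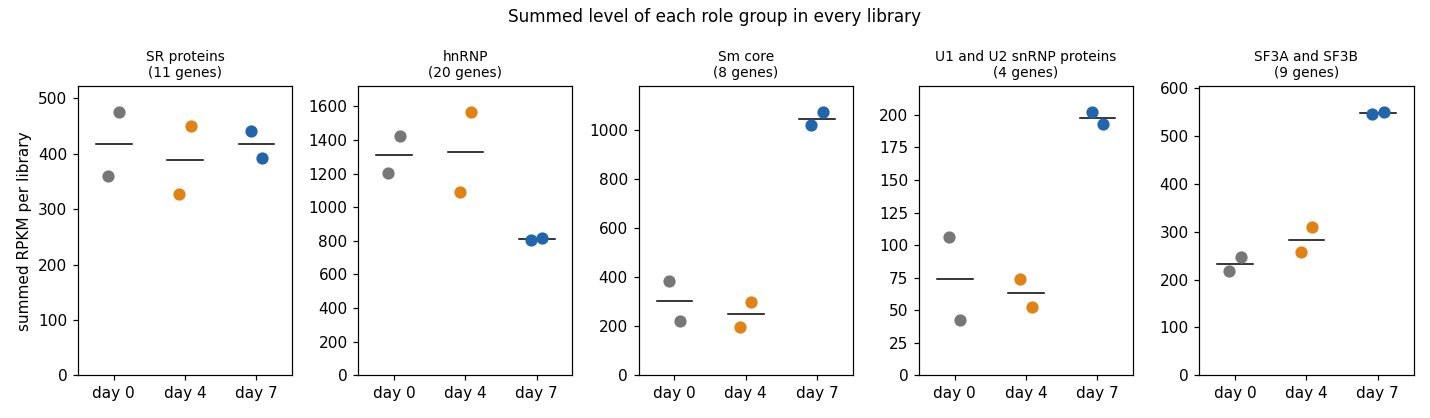
Summed RPKM of the 5 groups of genes in each of the 6 libraries, with a bar at the mean of each day. The Sm core, U1 and U2, and SF3A and SF3B sums are highest in both day 7 libraries, the hnRNP sum is lowest there, and the SR protein sum overlaps between days.

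The hnRNPs made up the largest sum of RPKM at days 0 and 4 and not at day 7. The 20 genes summed to 1203 and 1422 RPKM before culture (day 0), 1090 and 1563 RPKM on day 4, and 806 and 820 RPKM on day 7. Both day 7 sums lay below all 4 earlier ones. With 2 libraries against 2, an exact two-sided permutation test cannot pass the threshold of 0.05, so the sums carry no test. Of the 20, 1 rose at day 7 against day 0 (5%, against 11.3% of all genes tested) and 3 fell (15%, against 29.3%). The median was -0.62 where all genes had -1.14. At day 7 against day 4, 2 rose (10%, against 5.85% of all genes) and 2 fell (10%, against 6.75%). Here the median was -0.48 where all genes had -0.81. At day 4 against day 0, 3 fell (15%, against 1.92% of all genes), with a median of -0.31 where all genes had -0.40.

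The 3 hnRNPs with the highest levels did not pass the test in any comparison with RPKM as deposited. Hnrnpk, a binder of poly(C) stretches, stood at 230 and 260 RPKM before culture (day 0), 233 and 296 RPKM on day 4, and 119 and 104 RPKM on day 7. Hnrnpf, which binds runs of G, stood at 194 and 162 RPKM before culture (day 0), 293 and 481 RPKM on day 4, and 115 and 127 RPKM on day 7. Hnrnpa2b1, a close relative of Hnrnpa1, stood at 144 and 168 RPKM before culture (day 0), 99.3 and 162 RPKM on day 4, and 85.6 and 91.0 RPKM on day 7. In each of the 3 genes both day 7 libraries were lower than all 4 others, with log2 fold changes at day 7 against day 0 of -1.13 ± 0.42 for Hnrnpk (adjusted p = 0.0613), -0.55 ± 0.45 for Hnrnpf (adjusted p = 0.338) and -0.81 ± 0.42 for Hnrnpa2b1 (adjusted p = 0.149). At day 7 against day 4 Hnrnpf had -1.62 ± 0.45 (adjusted p = 0.0531). With quantile normalization all 3 genes were called lower at day 7 against day 0, and Hnrnpf also against day 4. A minimum of 5 RPKM in 2 libraries gave lower calls for Hnrnpk against day 0 and for Hnrnpf against day 4. Their results thus depend on the setting. Hnrnpf shares 67.3% and Hnrnpk 37.8% of the stretches of their transcripts with other genes, chiefly predicted genes.

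The hnRNPs that fell by day 7 include both a scaffold protein and its relative. Hnrnpu, also known as scaffold attachment factor A for its binding to chromatin, stood at 85.7 and 124 RPKM before culture (day 0), 69.4 and 93.1 RPKM on day 4, and 24.6 and 21.4 RPKM on day 7. Hnrnpul1, a relative of Hnrnpu that works in the DNA damage response, stood at 31.5 and 36.0 RPKM before culture (day 0), 14.7 and 20.7 RPKM on day 4, and 4.63 and 5.98 RPKM on day 7. In both genes the day 7 libraries lay below every earlier one. Hnrnpu had log2 fold changes of -2.12 ± 0.39 against day 0 (adjusted p = 0.0075) and -1.76 ± 0.39 against day 4 (adjusted p = 0.0221), the second of which was lost under 9 of 17 alternatives. Hnrnpul1 had -2.47 ± 0.39 against day 0 (adjusted p = 0.00434), a call that held under all 17 alternatives, and -1.56 ± 0.39 against day 4 (adjusted p = 0.0355), a call lost under 8 of 17. Hnrnpul2, another member of this subfamily, was not called: it averaged 21.4 ± 8.85 RPKM on day 0, 5.57 ± 1.73 RPKM on day 4 and 8.78 ± 1.24 RPKM on day 7, and had -1.14 ± 0.46 at day 7 against day 0 (adjusted p = 0.0743).

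Hnrnpl, Hnrnpab and Hnrnpd were called lower at day 4 against day 0, and of these only Hnrnpl was also called lower at day 7 against day 0. Hnrnpl, which binds CA repeats and silences exons of Ptprc, stood at 80.8 and 122 RPKM before culture (day 0), 24.5 and 31.7 RPKM on day 4, and 31.4 and 36.1 RPKM on day 7. It fell at day 4 against day 0 (-1.80 ± 0.38, adjusted p = 0.0369) and at day 7 against day 0 (-1.53 ± 0.38, adjusted p = 0.0198), and day 7 against day 4 had 0.26 ± 0.38 (adjusted p = 0.598). Its paralog Hnrnpll, which acts on the same Ptprc exons in T cells, was not called and averaged 8.94 ± 3.85, 12.7 ± 3.72 and 6.64 ± 2.90 RPKM on days 0, 4 and 7 (SD, n = 2 each). Hnrnpab stood at 60.8 and 76.4 RPKM before culture (day 0), 9.24 and 20.6 RPKM on day 4, and 63.7 and 74.1 RPKM on day 7. Its day 7 libraries lay inside the range of day 0, and both day 4 libraries lay below. The log2 fold changes of Hnrnpab were -2.22 ± 0.44 at day 4 against day 0 (adjusted p = 0.0304), 2.23 ± 0.44 at day 7 against day 4 (adjusted p = 0.0151) and 0.01 ± 0.44 at day 7 against day 0 (adjusted p = 0.993); the first pair of comparisons shares the day 4 libraries. Hnrnpd, known as AUF1 and a binder of AU-rich elements that mark mRNAs for decay, stood at 14.6 and 21.4 RPKM before culture (day 0), 2.80 and 5.30 RPKM on day 4, and 8.90 and 7.48 RPKM on day 7. Its fall at day 4 against day 0 (-1.93 ± 0.45, adjusted p = 0.0487) is lost under 12 of 17 alternatives, and without either day 4 library none of the day 4 calls remains.

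Hnrnpa0, which binds AU-rich mRNAs of cytokines in macrophages, was the hnRNP that rose at day 7 against day 0. It stood at 5.78 and 9.47 RPKM before culture (day 0), 2.73 and 4.46 RPKM on day 4, and 19.2 and 20.6 RPKM on day 7. The day 7 libraries lay above all others, with 1.31 ± 0.44 against day 0 (adjusted p = 0.0463), lost under 10 of 17 alternatives, and 2.21 ± 0.44 against day 4 (adjusted p = 0.0160); the pair of day 0 values rest on 5 and 4 reads. Hnrnpc, a core hnRNP that binds runs of U, was also highest at day 7, with 72.7 ± 6.31 RPKM at day 7 against 37.6 ± 3.08 RPKM at day 0 (SD, n = 2 each), and did not pass the test (0.93 ± 0.35, adjusted p = 0.0613). Of the rest, Hnrnph1, Hnrnph2, Hnrnph3, Hnrnpa3, Hnrnpm, Hnrnpdl and Hnrnpr were not called, and their log2 fold changes at day 7 against day 0 ran between -0.92 (Hnrnph3) and -0.05 (Hnrnpdl). Hnrnpa1 was listed at a low level for this family: 1.97 and 2.01 RPKM before culture (day 0), 1.86 and 0.988 RPKM on day 4, and 0.177 and 0.319 RPKM on day 7. It had 2 and 1 reads at day 0, below the mean of a receptor gene there, so no fold is given against day 0, and 46.4% of its transcript is shared with transcripts of 19 other genes.

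**Figure D3:**
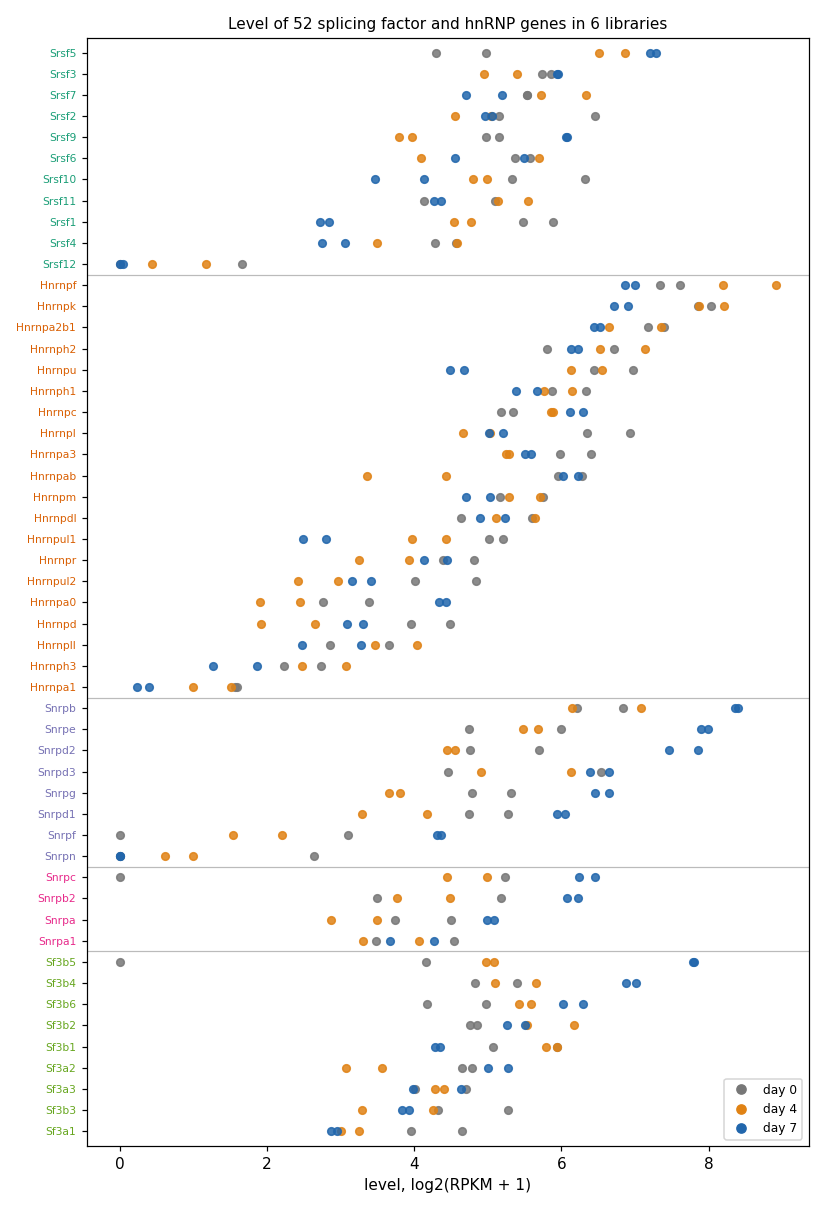
Level of each of the 52 genes on the log2(RPKM + 1) scale in all 6 libraries, 1 row a gene, sorted within the 5 groups by mean level and coloured by day. Day 7 points of the Sm core genes Snrpe, Snrpd2 and Snrpg stand to the right of the others, those of Srsf1, Hnrnpu and Hnrnpul1 to the left, and points at 0 are genes with no read in that library.

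The Sm core genes were the group with the highest share of calls. Snrpb, Snrpd1, Snrpd2, Snrpd3, Snrpe, Snrpf and Snrpg encode the proteins of the ring that is loaded onto the spliceosomal RNAs in the cytoplasm. Of these, 5 rose at day 7 against day 0 (71.4%, against 11.3% of all genes tested) and 5 at day 7 against day 4 (71.4%, against 5.85%), none was called lower in any comparison, and the group medians were 1.85 and 2.36. With the exon-length trend removed none of the 5 calls against day 0 and none of the 5 against day 4 was made, and Snrpg turns to -0.22 against day 0. With quantile normalization none was made against day 0 and 2 were made against day 4 (Snrpd2 and Snrpg). At day 4 against day 0 none was called by limma, and at an unadjusted p under 0.05 none was higher and 2 were lower. Of all 19279 genes tested, 4896 had an unadjusted p under 0.05 there. The sum over the 8 genes, Snrpn included, was 385 and 223 RPKM before culture (day 0), 197 and 301 RPKM on day 4, and 1022 and 1072 RPKM on day 7. Set against the hnRNP sum of the same library, the Sm sum was 0.320 and 0.157 of it before culture, 0.181 and 0.192 of it on day 4, and 1.27 and 1.31 times it on day 7. The day 0 sums rest on 98 and 29 reads.

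Snrpe stood at 63.0 and 25.8 RPKM before culture (day 0), 50.6 and 43.8 RPKM on day 4, and 254 and 237 RPKM on day 7. Snrpd2 stood at 50.8 and 26.0 RPKM before culture (day 0), 22.5 and 20.7 RPKM on day 4, and 175 and 232 RPKM on day 7. Snrpb stood at 113 and 73.5 RPKM before culture (day 0), 69.9 and 135 RPKM on day 4, and 327 and 337 RPKM on day 7. In all 3 genes the lowest day 7 library stood above the highest earlier one. Snrpe rose by 2.58 ± 0.47 (log2, adjusted p = 0.00779) against day 0 and 2.36 ± 0.47 (adjusted p = 0.0160) against day 4. Snrpd2 rose by 2.44 ± 0.43 (adjusted p = 0.00663) against day 0 and 3.16 ± 0.43 (adjusted p = 0.00302) against day 4. Snrpb rose by 1.85 ± 0.48 (adjusted p = 0.0212) against day 0 and 1.76 ± 0.48 (adjusted p = 0.0469) against day 4. The day 0 values rest on 10 and 2 reads for Snrpe, 8 and 2 for Snrpd2 and 41 and 13 for Snrpb. The size of the folds of Snrpe and Snrpd2 against day 0 is therefore uncertain.

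Snrpg and Snrpd1 were lowest at day 4. Snrpg stood at 26.6 and 38.8 RPKM before culture (day 0), 11.7 and 13.04 RPKM on day 4, and 99.0 and 86.7 RPKM on day 7. It rose by 2.81 ± 0.37 (log2, adjusted p = 0.00267) at day 7 against day 4 and by 1.5 ± 0.37 (adjusted p = 0.0190) at day 7 against day 0, where it had 7 and 5 reads at day 0. Snrpd1 averaged 31.9 ± 8.45 RPKM on day 0, 12.9 ± 5.87 RPKM on day 4 and 63.0 ± 3.48 RPKM on day 7 (SD, n = 2 each), rose against day 4 (2.27 ± 0.43, adjusted p = 0.0121) and did not pass against day 0 (0.98 ± 0.43, adjusted p = 0.0940). Snrpd3 differed widely between the day 0 libraries, with 92.3 and 21.0 RPKM from 18 and 2 reads, and was not called in any comparison. Snrpf stood at 7.62 and 0 RPKM before culture (day 0), 3.60 and 1.92 RPKM on day 4, and 18.8 and 19.7 RPKM on day 7. Its call at day 7 against day 0 (adjusted p = 0.0400) rests on 2 reads at day 0: its share of the reads was 3.74 times as high at day 7, with a 95% exact counting interval of 1.03 to 31.0, which covers counting error only, the day 0 reads lie below the receptor mean, the call is lost under 12 of 17 alternatives, and 89.5% of its transcript is shared with other genes. Snrpn, the imprinted neuronal counterpart of Snrpb, was not tested; it had 5 reads before culture, 10 on day 4 and none in either day 7 library, where 3 reads would be 0.0630 and 0.0928 RPKM. All 5 reads before culture lay in library II, and over both libraries a receptor gene averaged 4.95 reads before culture and 11.1 on day 4, so no fold is given.

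The proteins specific to the U1 or U2 particle are Snrpa and Snrpc of U1, of which Snrpc touches the start of the intron, and Snrpa1 and Snrpb2 of U2. The 4 genes summed to 107 and 42.2 RPKM before culture (day 0), 74.4 and 52.7 RPKM on day 4, and 202 and 193 RPKM on day 7. Of the 4, 1 was called higher at day 7 against day 0 (25%, against 11.3% of all genes tested) and 1 at day 7 against day 4 (25%, against 5.85%). Snrpb2 stood at 35.3 and 10.3 RPKM before culture (day 0), 21.4 and 12.7 RPKM on day 4, and 66.4 and 74.2 RPKM on day 7. It rose at day 7 against day 0 (1.81 ± 0.57, adjusted p = 0.0362), a call that rests on 14 and 2 reads at day 0 and is lost under 11 of 17 alternatives. Snrpa stood at 12.4 and 21.7 RPKM before culture (day 0), 6.28 and 10.2 RPKM on day 4, and 30.7 and 33.1 RPKM on day 7. It rose at day 7 against day 4 (1.86 ± 0.43, adjusted p = 0.0273) and had 0.91 ± 0.43 against day 0 (adjusted p = 0.119). Snrpc stood at 36.7 and 0 RPKM before culture (day 0), 30.8 and 20.8 RPKM on day 4, and 86.5 and 74.4 RPKM on day 7, and was not called in any comparison; its day 0 level rests on 9 reads in library II. Snrpa1 was not called in any comparison and averaged 16.2 ± 8.60, 12.4 ± 4.87 and 15.0 ± 4.70 RPKM on days 0, 4 and 7 (SD, n = 2 each).

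Within SF3A and SF3B subunits were called in both directions. Sf3b4, Sf3b5 and Sf3b6 rose at day 7 against day 0, while Sf3b1 and Sf3a1 fell. These are 3 of 9 called higher (33.3%, against 11.3% of all genes tested) and 2 of 9 called lower (22.2%, below the 29.3% of all genes tested). At day 7 against day 4, 2 were called higher (22.2%, against 5.85%) and 1 lower (11.1%, against 6.75%). Sf3b5, the shortest gene of this group, stood at 16.9 and 0 RPKM before culture (day 0), 32.9 and 30.4 RPKM on day 4, and 221 and 219 RPKM on day 7. Its log2 fold change at day 7 against day 0 was 5.71 ± 1.08 (adjusted p = 0.00856), a value that rests on 4 reads in library II and none in library III at day 0. These reads lie below the mean of 4.95 that a receptor gene had over both day 0 libraries, so the size of this fold is not reliable. Against day 4, with 33 and 86 reads, Sf3b5 had 2.76 ± 1.08 and did not pass (adjusted p = 0.136). Sf3b4, which binds the pre-mRNA upstream of the branch point, stood at 27.4 and 41.1 RPKM before culture (day 0), 33.2 and 49.6 RPKM on day 4, and 116 and 128 RPKM on day 7. It rose by 1.83 ± 0.40 (log2, adjusted p = 0.0134) against day 0 and 1.57 ± 0.40 (adjusted p = 0.0386) against day 4, and 51.2% of its transcript is shared with predicted genes. Sf3b6, which contacts the branch point adenosine, stood at 30.5 and 17.0 RPKM before culture (day 0), 47.2 and 41.9 RPKM on day 4, and 77.6 and 64.0 RPKM on day 7. Its 3 days did not overlap, and it rose at day 7 against day 0 (1.58 ± 0.40, adjusted p = 0.0205), with 11 and 3 reads at day 0.

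Sf3b1, the scaffold that clamps the branch point helix, stood at 32.7 and 60.5 RPKM before culture (day 0), 54.6 and 60.2 RPKM on day 4, and 19.4 and 18.4 RPKM on day 7. Both day 7 libraries lay below all others. It fell at day 7 against day 4 (-1.55 ± 0.40, adjusted p = 0.0416) and against day 0 (-1.19 ± 0.40, adjusted p = 0.0459), calls lost under 10 and 11 of 17 alternatives. Sf3a1 fell to 6.50 ± 0.305 RPKM at day 7 against 19.3 ± 6.84 RPKM at day 0 (SD, n = 2 each; adjusted p = 0.0330), lost under 9 of 17 alternatives. Sf3a2 was lowest at day 4, with 24.1 and 26.5 RPKM before culture (day 0), 7.44 and 10.9 RPKM on day 4, and 31.1 and 37.8 RPKM on day 7, and rose at day 7 against day 4 (1.82 ± 0.38, adjusted p = 0.0177). Sf3a3 averaged 19.3 ± 6.38 RPKM at day 7 against 20.1 ± 7.07 RPKM at day 0, and neither it nor Sf3b2 nor Sf3b3 was called in any comparison.

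The direction of the members went with the length of their exons. The median exon length per gene was 814 bases in the Sm core, 1240 in the U1 and U2 proteins, 2097 in SF3A and SF3B, 3219 in the SR proteins and 4328 in the hnRNPs. Across the 51 members tested, which share libraries, the Spearman correlation of the log2 fold change with exon length was -0.74 at day 7 against day 0, -0.69 at day 7 against day 4 and -0.12 at day 4 against day 0. All genes showed a weaker form of it: over 8121 genes whose mean reached 5 RPKM the values were -0.34, -0.29 and -0.11. At day 7 against day 0 those genes had a median log2 fold change of 1.94 up to 1000 bases of exon and -0.55 above 5000 bases, while the members had 2.51 (8 genes) and -1.08 (12 genes). When this trend over all genes was removed, an alternative chosen after seeing the data, 5 members were called higher at day 7 against day 0 (Hnrnpa0, Hnrnpc, Sf3b4, Sf3b5 and Srsf5) and 6 lower (Hnrnpl, Hnrnpu, Hnrnpul1, Srsf1, Srsf10 and Srsf4), and no Sm core gene was called. Of all 19279 genes tested, 2158 were then called higher and 4505 lower. Snrpe then had 0.64 (adjusted p = 0.222), Snrpd2 0.53 (adjusted p = 0.280) and Snrpg -0.22 (adjusted p = 0.674). Srsf5 had 2.76 (adjusted p = 0.00134) and Srsf1 -1.84 (adjusted p = 0.00442).

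**Figure D4:**
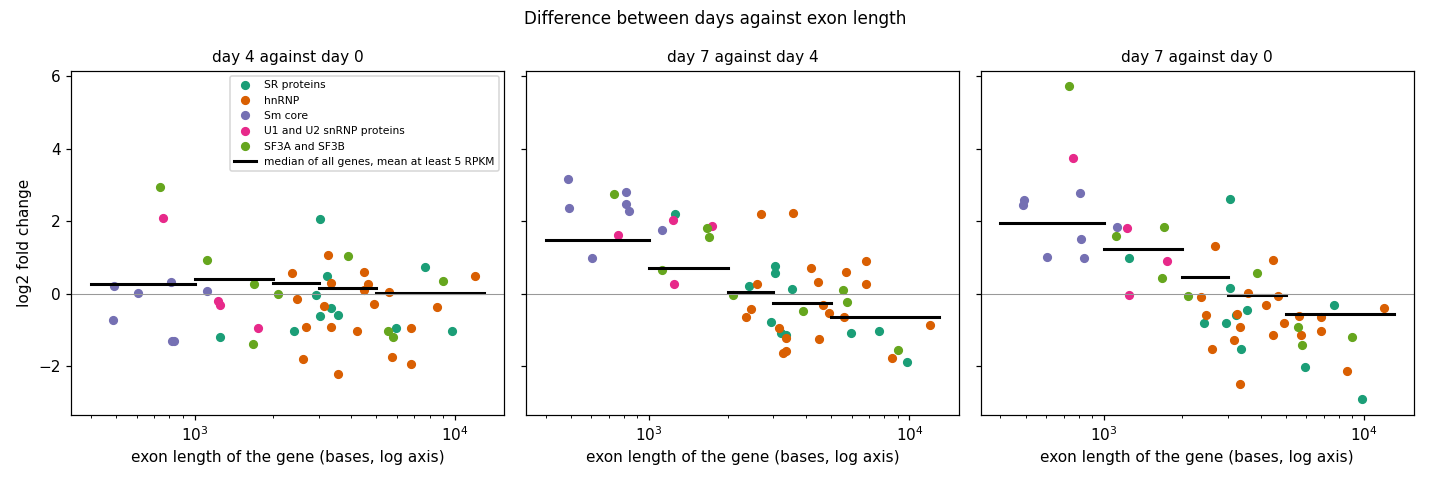
Log2 fold change of each tested member against the exon length of the gene (log axis) in the 3 comparisons, coloured by group, with black bars at the median of all genes whose mean reached 5 RPKM in 5 classes of length. Against day 0 the bars of day 7 step down from 1.94 to -0.55, and the members run from the Sm core genes at the upper left to Srsf1 at the lower right.

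The number and direction of calls depended on the scaling. With median-ratio size factors 16 members were called higher and 4 lower at day 7 against day 0 (80.0% higher, against 60.0% with RPKM as deposited), and 10 and 1 at day 7 against day 4 (90.9% against 73.3%). Of all 19279 genes tested, 2750 were then called higher and 5512 lower at day 7 against day 0, and 1437 and 1335 at day 7 against day 4. With quantile normalization, which sets the median of all genes to -0.01 where RPKM gave -1.14, 0 members were called higher and 12 lower at day 7 against day 0, with 5 higher and 22 lower at an unadjusted p under 0.05. Of all 19279 genes tested, 1211 were then called higher and 930 lower, and 5417 had an unadjusted p under 0.05. Under quantile normalization the members' median was -0.90, and that of day 7 against day 4 was 0.02, near the 0.04 of all genes. Relative to all genes the members' median at day 7 against day 0 was thus 0.84 higher with RPKM, 1.09 higher with median-ratio factors and 0.89 lower with quantiles. Srsf1 and Hnrnpul1 were called lower under each of them. Thinning every library to the reads of the smallest, so that depth no longer differed, gave 7 members called higher and 5 lower at day 7 against day 0, of which 6 and 4 were also called from the deposited RPKM. Snrpa1 and Hnrnpk were called in addition. Of all 17327 genes tested after thinning, 945 were called higher and 2844 lower.

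Beyond the members, other genes of the pathway were read from lists of known factors. Of 53 other spliceosome proteins tested, 7 were called higher (13.2%, near the 11.3% of all genes) and 5 lower (9.43%, against 29.3%) at day 7 against day 0, 1 and 4 (1.89% and 7.55%, against 5.85% and 6.75%) at day 7 against day 4, and none at day 4 against day 0 by limma, where 7 were higher and 2 lower at an unadjusted p under 0.05. The smallest adjusted p among the higher calls at day 7 against day 0 were those of Bud31, of the complex that joins at activation (57.8 and 55.4 RPKM at day 7, against 7.02 and 0 RPKM at day 0, adjusted p = 0.00876), and Lsm7, of the ring on U6 RNA (24.99 and 33.8 RPKM at day 7, against 4.19 and 0 RPKM at day 0, adjusted p = 0.00945). Each rests on 2 reads at day 0, all in library II, below the mean of 4.95 reads that a receptor gene had over both day 0 libraries. Of 17 SR-related and exon junction proteins 3 were called higher at day 7 against day 0 (17.6%; Magoh, Rbm8a and Sap18), and of 15 proteins of the SMN complex and Sm assembly, which load the Sm ring, 2 were called higher (13.3%; Clns1a and Gemin7) and 2 lower (13.3%; Gemin8 and Wdr77). Of 9 minor spliceosome proteins 2 were called higher (22.2%; Zmat5 and Zcrb1). Over all genes tested these shares were 11.3% higher and 29.3% lower. Several of these calls also rest on few reads at day 0. Zmat5 had 3 and 1 reads there, below the receptor means of 3.39 and 1.57. Gemin7 had 4 and 2 reads, Magoh 7 and 2, and Zcrb1 9 and 3.

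Of 10 kinases and importers that act on SR proteins, 1 was called higher at day 4 against day 0 (10%, against 3.66% of all genes) and 3 were called lower at day 7 against day 4 (30%, against 6.75%). Clk4, a dual-specificity kinase of SR proteins, stood at 7.79 and 7.08 RPKM before culture (day 0), 52.2 and 82.0 RPKM on day 4, and 12.96 and 9.01 RPKM on day 7. It rose at day 4 against day 0 (2.98 ± 0.40, adjusted p = 0.0120) and fell at day 7 against day 4 (-2.49 ± 0.40, adjusted p = 0.00658), 2 comparisons that share the day 4 libraries. Srpk2 and Clk3 also fell at day 7 against day 4, and of this list none was called at day 7 against day 0 by limma or had an unadjusted p under 0.05. Of 31 other regulators of alternative splicing, 2 were called higher (6.45%, against 11.3% of all genes) and 3 lower (9.68%, against 29.3%) at day 7 against day 0. Mbnl3, a muscleblind protein, stood at 12.5 and 27.0 RPKM before culture (day 0), 17.1 and 24.9 RPKM on day 4, and 0.783 and 0.420 RPKM on day 7, with -3.61 ± 0.50 at day 7 against day 0 (adjusted p = 0.00263). Rbm5, a regulator of apoptosis gene isoforms, averaged 7.43 ± 0.767 RPKM at day 7 against 37.8 ± 3.20 RPKM at day 4 (SD, n = 2 each), and fell between these days (-2.20 ± 0.37, adjusted p = 0.00789).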

How the data were processed

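Total RNA (Qiagen RNeasy) was turned into cDNA with the SMARTer v3 low-input kit and into libraries with NexteraXT, per the labels' protocols. The authors deposited RPKM per gene with Entrez IDs, symbols and exon lengths, per the file headers. The submitters' processing notes name mm9, TopHat2 2.0.13 and SAMtools 1.1; not given in the sources used here are the counter, the annotation and whether strand was used, so antisense reads cannot be told apart from sense reads. RPKM times length gave whole reads within 6.71e-05 in every library. Genes with at least 1 RPKM in at least 2 of 6 libraries (19279 of 21761) were tested with limma 3.58.1 in R 4.3.3 on log2(RPKM + 1), a scale that understates the change of low genes, with 3 group means and a mean-variance trend; tests are two-sided with Benjamini-Hochberg adjustment over all genes tested, and the limma procedure was tested on simulated data. The simulated libraries shared a common profile apart from the changed genes. They do not cover differences in cell makeup or the trend with exon length. The day numbers of the labels set the groups. Intervals and floors cover counting error only. Members and lists were chosen with earlier results of these data known. Values per library are given for the 3 members of each group with the highest mean and up to 3 called members per comparison with the largest change; of other lists, the genes with the smallest adjusted p, and other genes named were chosen after their values were seen. Promoters are RefSeq's (GRCm38.p6); gene coordinates on mm9 were not used here. Shared stretches of 50 bases were counted against GENCODE transcripts. Alternatives covered the pseudocount, the filter, scaling, the model and each library left out.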

Additional observations from a re-analysis of the deposited data

How the results depend on the processing

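Over 17 alternatives, 16 planned and 1 added after seeing the data, 39 calls of members were recomputed. Of 2586 member values, 2214 stayed on their side of the threshold, 248 fell short of it, 120 newly passed it and 4 called values changed sign. The 2214 include 133 values that changed sign and were not called under either setting. Counts of members are given below as higher and lower, first for day 4 against day 0, then for day 7 against day 4, then for day 7 against day 0, and the cause of each move was not tested. A pseudocount of 0.1 gave 1 and 0, 11 and 5, 10 and 9, and no filter on low values gave 0 and 0, 6 and 3, 10 and 6. A minimum of 5 RPKM in 2 libraries gave 1 and 6, 12 and 5, 12 and 9, with a median of -0.09 at day 7 against day 0. A pseudocount of 5 gave a median of -0.20 at day 4 against day 0. Median-ratio size factors gave 1 and 0, 10 and 1, 16 and 4, with medians of -0.12, 0.52 and 0.12. Quantile normalization gave 0 and 7, 3 and 1, 0 and 12, with medians of -0.69, 0.02 and -0.90. The voom fit on recovered reads gave 0 and 0, 15 and 13, 7 and 10, with a median of -0.45 at day 4 against day 0. Thinning to the smallest library gave 2 and 1, 4 and 0, 7 and 5, with medians of -0.45 at day 4 against day 0 and -0.15 at day 7 against day 0. No mean-variance trend gave 0 and 0, 7 and 0, 8 and 5. Removing the exon-length trend gave 1 and 5, 6 and 1, 5 and 6, with a median of -0.19 at day 7 against day 0. The labels share number II between days 0 and 4 and number III between days 0 and 7, and the deviations of these libraries correlate at 0.013 and 0.021, so the numbers are not read as pairs; a replicate block through an estimated correlation of 0.304 gave 1 and 6, 12 and 5, 14 and 10. Leaving out each library in turn gave 0 to 6 and 0 to 14, 0 to 16 and 0 to 9, 3 to 14 and 2 to 13, with medians of -0.42 to -0.01, 0.17 to 0.45 and -0.44 to -0.06. The 4 changes of sign at day 7 against day 0 are Snrpa1 with thinning (1.23, adjusted p = 0.0428), Srsf9 with quantile normalization (-0.01) and without the length trend (-0.05), and Snrpg without the length trend (-0.22). Depth limits day 0 most, where 3 reads of a 1 kb gene are 9.29 and 19.0 RPKM.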
